A study of Mus musculus with 4 samples.

Results

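TLE3 binding was described at 9 mouse genes of heme synthesis and breakdown: Alas1, Alas2, Alad, Uros, Urod, Cpox, Ppox, Fech and Hmox1. The members were the listed TLE3 regions for which the deposited tables named one of these genes as nearest, within 50 kb of its start site. They were selected on measured values too: a region is in the tables only where its value passed a minimum and a multiple of the input in at least 1 depot. By that rule, 7 of 69599 regions were found, at 4 of the 9 genes. Alas1 had 4 regions, Alad, Fech and Hmox1 had 1 each, and Alas2, Uros, Urod, Cpox and Ppox had 0.

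The study profiled TLE3 by chromatin immunoprecipitation and sequencing in primary adipocytes of 3 fat depots: brown fat (BAT, from pooled interscapular, cervical and axillary pads), epididymal white fat (eWAT, a visceral depot) and inguinal white fat (iWAT, a subcutaneous depot). Stromal-vascular cells of male NMRI mice aged 4 to 5 weeks, 10 to 15 animals to a pool, were differentiated in medium holding insulin (30 nM) and the PPARγ agonist rosiglitazone (1 µM) and collected on day 8, with over 50% of cells differentiated. Chromatin was fixed with DSG and then formaldehyde. All groups shared this treatment, and the labels name no genetic change. Each depot had 1 TLE3 library, and the only input library, from iWAT adipocytes without antibody, served all 3. There were no replicates, so no test between depots was possible, and depot and library cannot be told apart. The cell type could not be checked on RNA, which was not measured here, and a TLE3 region near a gene does not show how much that gene is expressed.

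Heme is built in a chain of enzyme steps that starts and ends in the mitochondrion. ALAS1 makes 5-aminolevulinate in most cells and sets the pace of the pathway, and ALAS2 does so in red cell precursors. ALAD, UROS and UROD build and trim the ring in the cytosol, CPOX and PPOX oxidise it, and FECH inserts the iron. HMOX1 opens the ring again, giving biliverdin, iron and carbon monoxide. Fat cells need heme for the cytochromes of the respiratory chain, which are abundant in brown adipocytes. TLE3 is a Groucho corepressor that has no DNA-binding domain of its own and is brought to chromatin by DNA-bound factors.

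Values are scaled reads, meaning reads in a region of 230 bp brought by the authors to a common total per library. One read was worth 2.77 scaled reads in BAT, 0.883 in eWAT, 0.526 in iWAT and 0.651 in the input, so BAT values are the coarsest. A count of 0 allows 3 reads, which is 8.30 scaled reads in BAT. Intervals are 95% intervals for counting error alone. Each library pools many cells, so fewer bound cells and less TLE3 per cell cannot be told apart. Coordinates are of mm9, the build named in the submitters' processing notes.

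Alas1 carried the most TLE3 of the 4 genes, and its regions fell into an upstream pair and an intronic pair. The upstream region on chromosome 9 from 106152817 to 106153047, intergenic and 2.65 kb before the start site, was covered by 24.9 scaled reads in the BAT library, 73.3 in eWAT, 99.3 in iWAT and 4.56 in the input. The farther one, from 106161374 to 106161604, intergenic and 11.2 kb upstream, had 11.1 in BAT, 17.7 in eWAT, 28.4 in iWAT and 0 in the input. On this scale both upstream regions were highest in iWAT and lowest in BAT. Relative to the median region, the log2 ratio of BAT over eWAT was 0.03 (-1.21 to 0.96) at 2.65 kb and 0.98 (-1.16 to 2.43) at 11.2 kb. BAT over iWAT was -0.29 (-1.51 to 0.59) and 0.43 (-1.65 to 1.71) at these regions. The order of BAT and eWAT thus turned at both and that of BAT and iWAT at 11.2 kb, but all these intervals include 0. The first intronic region, from 106139971 to 106140201 in intron 8 of 10 (NM_020559), had 5.53 in BAT, 75.9 in eWAT, 25.2 in iWAT and 0.65 in the input. The second, from 106138466 to 106138696 in intron 9 of 10, had 24.9 in BAT, 109 in eWAT, 42.6 in iWAT and 6.51 in the input. Both intronic regions were highest in eWAT.

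**Figure D1:**
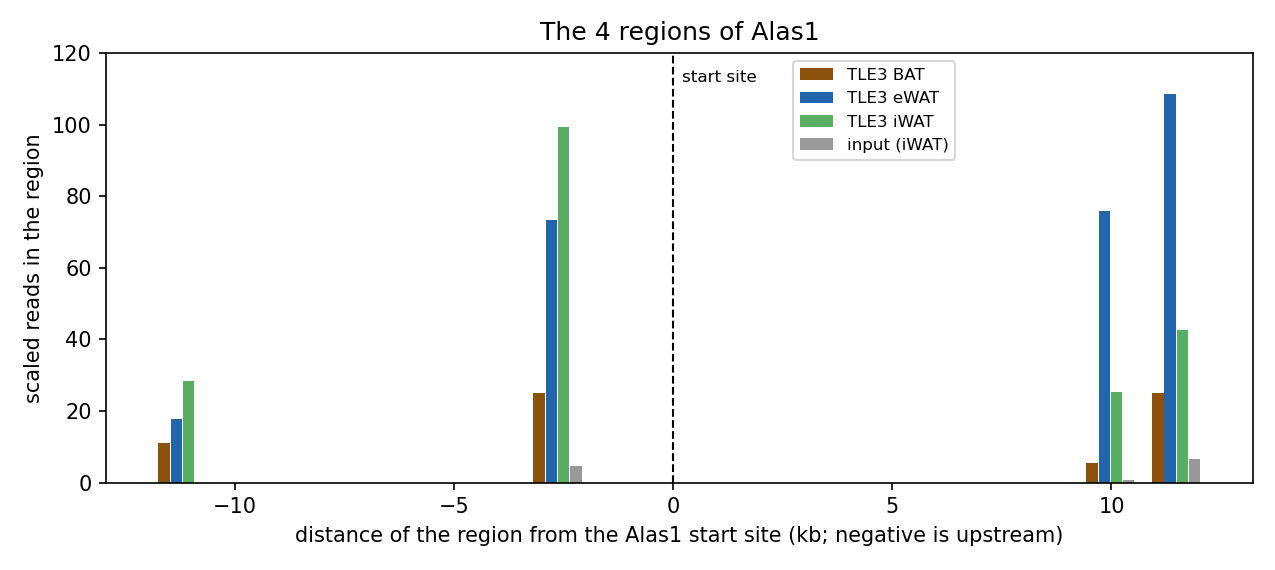
Scaled reads (y axis) at the 4 Alas1 regions, placed by distance from the start site in kb (x axis, upstream negative); bars stand for the TLE3 libraries of BAT, eWAT and iWAT and the iWAT input, 1 library each. On this scale iWAT is highest at both upstream regions (99.3 at 2.65 kb) and eWAT at both intronic regions (109 at 11.5 kb).

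Ratios between depots are log2 ratios given relative to the median region, since BAT values ran lower at most regions. The median over all 69599 regions was -1.52 for BAT over eWAT, -1.63 for BAT over iWAT and 0.10 for eWAT over iWAT. A region is called where it differed at least 2-fold from that median with its whole interval on one side. For eWAT over iWAT, the Alas1 regions in introns 8 and 9 were called higher, with ratios of 1.48 (0.96 to 2.03) and 1.25 (0.83 to 1.67). The 2.65 kb and 11.2 kb upstream regions had ratios of -0.54 (-0.93 to -0.16) and -0.76 (-1.60 to -0.02), both under 2-fold. Each of these 4 signs was the same under every scaling tried. The intron 9 region was listed in eWAT alone and so entered through the depot in which it was high, while the intron 8 region was listed in both white depots.

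The contrast inside Alas1 was also measured without any scaling between libraries; it was chosen after the values were seen. The eWAT over iWAT ratio of the intronic pair was 3.81 times that of the upstream pair (2.75 to 5.32). Intron 8 against the 2.65 kb upstream region gave 4.06 (2.58 to 6.48), and intron 9 against it gave 3.45 (2.32 to 5.16), the second and the pooled value drawing on a region listed only in eWAT. Within each pair the ratios were close, at 1.19 (0.65 to 2.23) upstream and 0.85 (0.53 to 1.36) in the introns, and these intervals include 1. The intronic pair held 45.8% of the Alas1 signal in BAT, 67.0% in eWAT and 34.7% in iWAT. BAT had 24 reads over the 4 regions, and its intervals include 1 against both white depots: the same ratio of ratios was 0.42 (0.16 to 1.05) for BAT over eWAT and 1.59 (0.63 to 3.97) for BAT over iWAT. Of the single region pairs, intron 8 against the 11.2 kb upstream region gave 0.12 (0.01 to 0.90) for BAT over eWAT, on 2 and 4 BAT reads.

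Summed over its regions, Alas1 reached 66.4 scaled reads in the BAT library, 276 in eWAT, 195 in iWAT and 11.7 in the input. This put it at percentile 86.1 of the 13381 genes with a region within 50 kb by its sum over the 3 depots, where Hmox1 was at 60.4, Alad at 52.8 and Fech at 14.3. The summed ratio, relative to the median gene, was 0.29 (0.07 to 0.51) for eWAT over iWAT, and it became -0.01 when only regions within 10 kb counted, which drops the intron 9 region and the 11.2 kb upstream region. The gene total thus adds regions whose ratios have opposite signs. BAT over eWAT was -0.47 (-1.16 to 0.10) for Alas1 and not called, although on the authors' scale it was called lower at -2.03. The genes whose summed values lay closest to Alas1 in all 3 TLE3 libraries, by the greatest log2 difference in any of them, were Mcl1 (0.06), Serpinb1a (0.06) and Phlda1 (0.07). Mcl1 had 63.6 in BAT, 265 in eWAT and 188 in iWAT over 5 regions.

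Alad, the second enzyme of the pathway, had the most one-sided region. It lay in intron 1 of 11 (NM_008525), on chromosome 4 from 62176588 to 62176818 and 4.24 kb inside the gene. TLE3 values were 0 in BAT, 170.4 in eWAT and 4.73 in iWAT, against 5.21 in the input. These are 0, 193 and 9 reads, with 8 in the input. The iWAT value was no higher than that of the input, with a fold of 0.91 (0.31 to 2.71), while the eWAT value was 32.7 times the input (16.3 to 76.9). The eWAT fold follows in part from the listing, since no listed value was under 10 times the input.

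The Alad region was listed in eWAT alone and so entered through the depot in which it was high. The eWAT over iWAT ratio was 5.00 (4.11 to 6.22), a 31.9-fold difference from the median region, and 138 regions (0.198% of all) reached that ratio. BAT, set at the 3 reads that a count of 0 allows, was at least 20.5-fold lower than eWAT on the authors' scale and at least 7.15-fold lower relative to the median region, with the eWAT value taken as exact. The 95% interval, which also carries the counting error of eWAT, reached up to -2.53 on the log2 scale relative to the median region. Both differences were called under every scaling tried. Between BAT and iWAT no fold can be given, since 4.73 lies under the 8.30 that the BAT count allows. Of 3 macrophage markers, 2 had a region, and Adgre1 was one-sided too, with 0 scaled reads for BAT, 42.4 for eWAT and 7.36 for iWAT in a region listed in eWAT alone. Csf1r had 13.8 for BAT, 60.9 for eWAT and 32.6 for iWAT, and the part of such cells in the Alad values was not tested.

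The Alad region was unusual for its strength. Of the 879 regions with at least its eWAT value, it had the lowest iWAT value. The next lowest was 17.9, and the median of the 879 was 82.96 in BAT and 151 in iWAT, with an input of 4.56. The Alad region was among 6 of the 879 with 0 reads in BAT. Of the 879, 77.4% were listed in all 3 depots. The Alad region entered through eWAT alone and the 879 were cut on their eWAT value, so these ranks are a description. The 2 closest listed regions, 14.0 kb and 18.6 kb away and assigned to Hdhd3, were not one-sided. In BAT they had 22.1 and 69.1 scaled reads, in eWAT 57.4 and 148, and in iWAT 50.5 and 84.6.

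**Figure D2:**
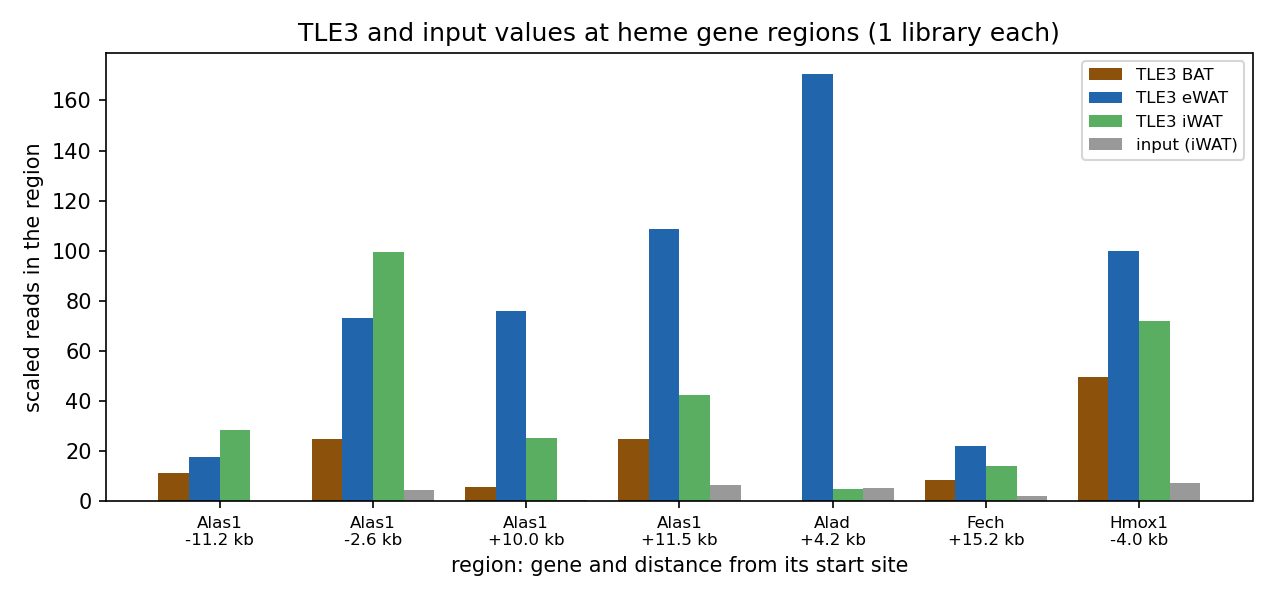
Scaled reads (y axis) at each of the 7 regions (x axis: gene and distance from its start site in kb), for the TLE3 libraries of BAT, eWAT and iWAT and the iWAT input, 1 library each. The Alad region stands at 170.4 in eWAT and at 0 in BAT and 4.73 in iWAT, while the Hmox1 region holds reads in all 3 depots.

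Fech, which encodes the iron-inserting last enzyme, had the weakest region of the 7 in eWAT, iWAT and BAT combined. It lay in intron 4 of 10 (NM_007998) on chromosome 18 from 64633433 to 64633663, 15.2 kb inside the gene, with 8.30 scaled reads in the BAT library, 22.1 in eWAT, 14.2 in iWAT and 1.95 in the input. The BAT value rested on 3 reads. No depot pair was called, and the eWAT over iWAT ratio was 0.54 (-0.31 to 1.38). A further Fech region lay just outside the distance limit, at 59.1 kb, with 8.30 in BAT, 15.01 in eWAT and 25.8 in iWAT.

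Hmox1, the inducible heme oxygenase, had the highest BAT value of the 7 regions. The region was intergenic, 3.97 kb upstream on chromosome 8 from 77613435 to 77613665. It held 49.8 scaled reads in the BAT library, 99.8 in eWAT, 72.0 in iWAT and 7.16 in the input. Over the iWAT input these values were 6.95-fold (3.11 to 16.3) in BAT, 13.9-fold (7.50 to 28.7) in eWAT and 10.1-fold (5.45 to 20.6) in iWAT. The region was listed in eWAT and iWAT, and no listed value was under 10 times the input. The eWAT and iWAT folds thus follow in part from the listing and are a description. BAT over iWAT was called higher relative to the median region at 1.14 (0.30 to 1.82), but on the authors' own scale the sign turned, to -0.50, and the call was also lost under every other setting of scaling or pseudocount. BAT over eWAT was 0.55 (-0.29 to 1.24) and eWAT over iWAT 0.37 (-0.003 to 0.74), and neither was called; on the authors' scale BAT over eWAT was -0.97.

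Taking the 7 regions together, eWAT over iWAT was called higher at 3 and lower at 0, where 16.9% of all regions were called higher and 23.3% lower. All 7 were listed in eWAT and 3 of them (intron 9 of Alas1, Alad and Fech) in eWAT alone, so this count and the median ratio follow in part from how the regions entered and are a description only. BAT over eWAT was called higher at 0 and lower at 2, Alad and the intron 8 region of Alas1, against 12.4% and 7.61% of all regions. The intron 8 ratio was -1.94 (-5.32 to -0.36) on 2 BAT reads. BAT over iWAT was called higher at 1, the Hmox1 region, and lower at 0, against 13.8% and 6.62%. All 7 regions entered through eWAT and 0 were listed in BAT. The BAT counts and ratios given here thus also follow in part from how the regions entered. On the authors' scale BAT had the lowest value of the 3 depots at all 7 regions, whereas relative to the median region BAT over eWAT was above 0 at 4 of them; at Alad the BAT count of 0 does not place BAT below iWAT. The comparisons share libraries and are not independent of each other. The median ratio over the 7 regions was 0.03 for BAT over eWAT, 0.43 for BAT over iWAT and 0.54 for eWAT over iWAT, where it is 0 over all regions by construction.

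**Figure D3:**
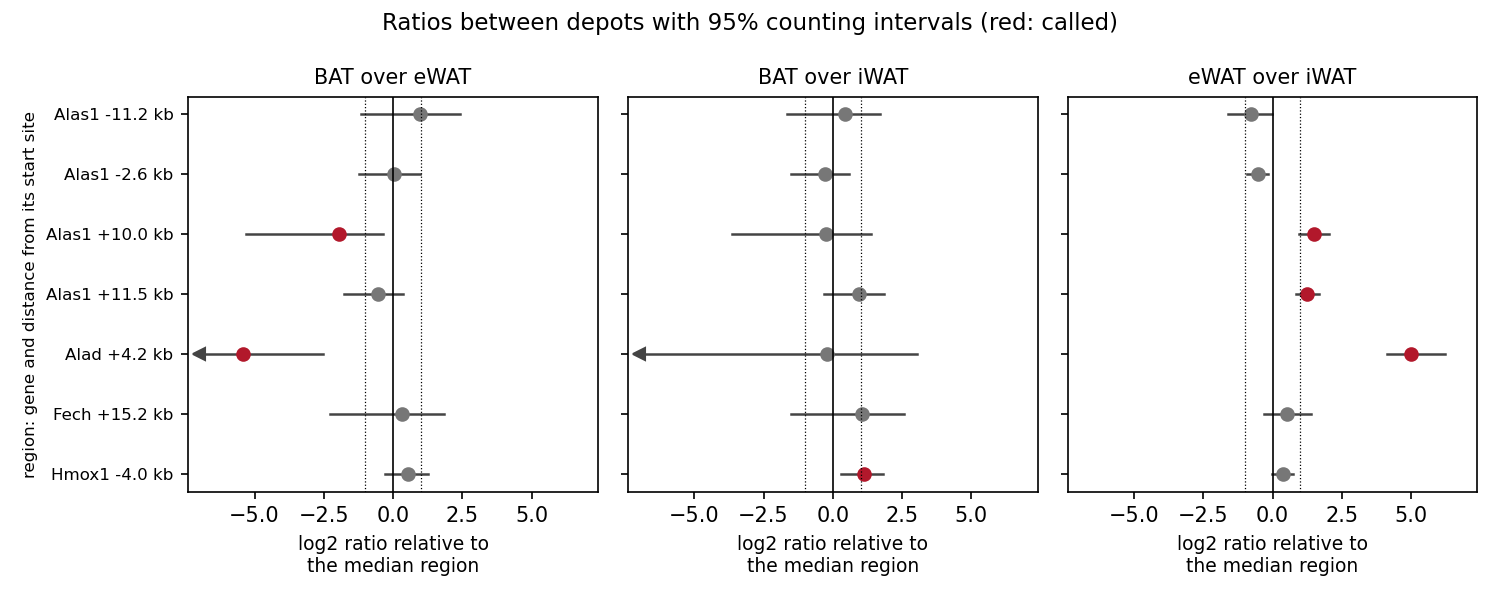
Log2 ratios between depots relative to the median region (x axis) for the 7 regions (y axis), with bars for the 95% counting interval, arrows where it has no lower end, dotted lines at 2-fold and called regions in red. The Alad region stands at 5.00 for eWAT over iWAT, and both intronic Alas1 regions lie to the right of 0 there while both upstream ones lie to the left.

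By gene, the order of summed values was Alas1, Hmox1, Fech and Alad in BAT and in iWAT, but Alas1, Alad, Hmox1 and Fech in eWAT. In eWAT no neighbours in that order overlapped, from 276 (246 to 308) at Alas1 to 22.1 (14.3 to 32.6) at Fech. In iWAT the intervals stayed apart too, with Fech at 14.2 (9.35 to 20.6) above Alad at 4.73 (2.16 to 8.98). In BAT, Alas1 at 66.4 (42.5 to 98.7) overlapped Hmox1 at 49.8 (29.5 to 78.7), and Fech at 8.30 (1.71 to 24.2) overlapped Alad at 0 (up to 8.30). The Alas1 sums cover 4 regions of equal length and the others 1 each.

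Whether a region was listed was a separate matter from whether it held reads. No region was listed in a depot with fewer than 15 scaled reads there or with less than 10 times its input, limits read from the values and stated by no source. These limits chose the members, so the listings are a description. All 7 regions were listed in eWAT, 4 in iWAT (the 2 upstream and the intron 8 regions of Alas1, and Hmox1) and 0 in BAT. By gene this is 0 of 9 in BAT, 4 of 9 in eWAT and 2 of 9 in iWAT, against 21.4%, 46.0% and 42.4% of 21900 protein-coding genes, and 51.6% had a region listed in any depot.

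High input set the limit at several of these regions. Input was 4.56 or more, the highest 5% of all regions, at 4 of the 7: the Hmox1 and Alad regions, the 2.65 kb upstream region and the intron 9 region of Alas1. The median input was 4.56 at the 7 regions and 1.30 over all regions. In BAT, 3 regions had 15 scaled reads or more and still missed 10 times the input. The Hmox1 region had 49.8 against a limit of 71.6, the 2.65 kb upstream Alas1 region 24.9 against 45.6, and the intron 9 region 24.9 against 65.1. In iWAT the intron 9 region had 42.6 against 65.1 and was not listed, while Hmox1 passed narrowly with 72.0 against 71.6. All these limits rest on an input from iWAT cells, so the BAT and eWAT values had no input of their own depot.

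**Figure D4:**
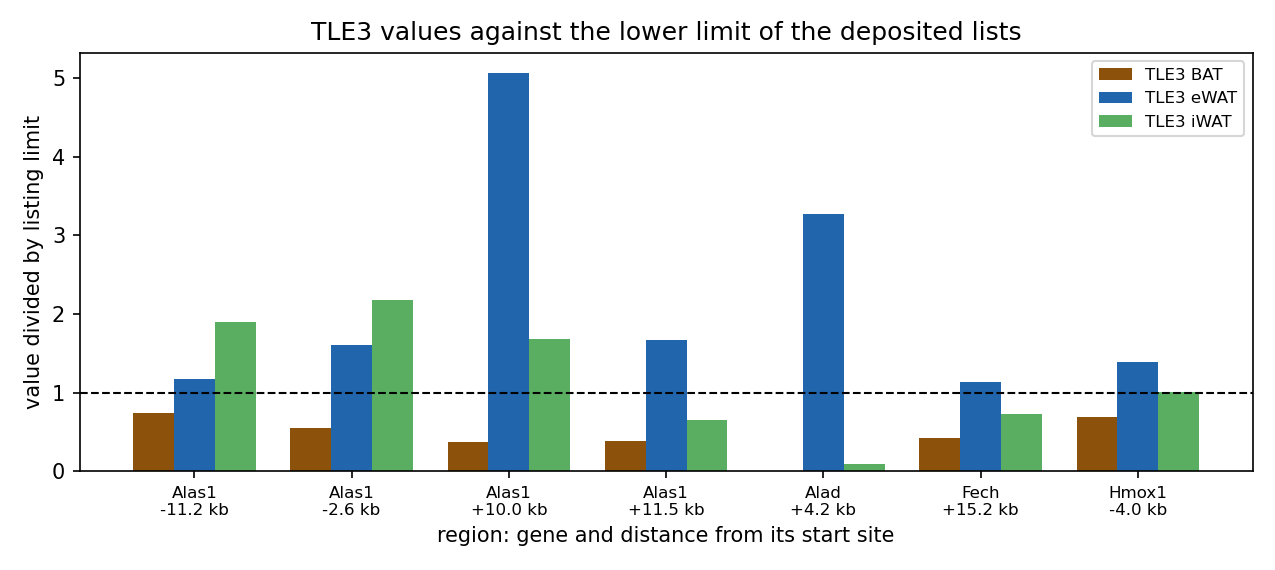
TLE3 value divided by the listing limit, the larger of 15 scaled reads and 10 times the input (y axis, dashed line at 1), for the 7 regions (x axis) in BAT, eWAT and iWAT, 1 library each. All eWAT bars pass the line and no BAT bar does, the highest BAT bar being the farther Alas1 upstream region at 0.74.

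All 7 regions lay away from the start sites. The closest was 2.65 kb off and 0 were within 1 kb. Of all regions, which were not held to 50 kb, only 3.02% were within 1 kb, so 0 of 7 does not set the members apart. There were 4 intronic and 3 intergenic regions, against 45.4% intronic and 49.7% intergenic over all regions. The median distance was 9.98 kb, with all members held to 50 kb by the rule. Alas2, Uros, Urod, Cpox and Ppox were named as nearest gene by 0 regions at any distance. A region nearer to another start site is not counted for them, so this does not show that TLE3 is absent around these genes.

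Promoter sequences were searched for the letters of factors with known ties to heme genes or to fat cells. RefSeq windows from 250 bases before to 50 after the start site (GRCm38.p6) were matched for 7 of the 9 genes, in 10 windows; Fech and Hmox1 had no entry. Both strands were read. The nuclear receptor half-site AGGTCA was in 1 of the 10 windows, at Alas2, and in 16.3% of 32851 windows of all genes. AGATAA, read by GATA factors, was in 2 of the 10 windows, at Alas2 and Cpox, against 11.2%. The Cpox match lay after the start site. TGCGCA, the core read by NRF1, was in 1 window, at Cpox, against 7.76%. TGACNNNGC (BACH1 and NRF2), CTTTGA (TCF and LEF), TTGCNNAA (C/EBP) and the direct repeat AGGTCANAGGTCA, which contains the half-site, were in 0, against 12.4%, 16.0%, 10.8% and 0.0396%. A match is a description and not a site. The stretches that held the 3 matches before a start site are shown on the gene's own strand with the matched letters in capitals, because these are the member promoters with such letters, and both genes had 0 TLE3 regions.
Alas2, half-site 245 bases before the start site, chrX:150547167-150547196, plus strand: actgaAGGTCAgagggatggttctacagaa
Alas2, GATA letters (on the opposite strand) 86 bases before it, chrX:150547319-150547348, plus strand: ctactttgctttTTATCTttagcagaggcc
Cpox, NRF1 core 12 bases before it, chr16:58670178-58670207, plus strand: cagcaggacccacctctgTGCGCAgggtgc

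Other genes of heme handling and iron supply were looked up as a list of 41, of which 37 had a region within 50 kb, and 19 had one listed in BAT, 34 in eWAT and 28 in iWAT. These are 46.3%, 82.9% and 68.3% of the list, where 21.4%, 46.0% and 42.4% of protein-coding genes had one. Sums were largest at Aco1, a cytosolic aconitase that doubles as an iron sensor, with 249 in BAT, 464 in eWAT and 403 in iWAT. Fth1, the ferritin heavy chain, followed with 113, 338 and 358 in the same depots, and Slc25a28, a mitochondrial iron importer, with 124, 359 and 302. These sums cover 7 regions at Aco1, 6 at Fth1 and 5 at Slc25a28, where the median over all genes is 2. For BAT over eWAT, 3 of the 37 were called higher and 3 lower, where 12.0% and 10.9% of all genes were. For BAT over iWAT the counts were 5 and 2, against 13.1% and 9.86%, and for eWAT over iWAT 4 and 2, against 11.1% and 13.3%. The BAT counts depend on the scaling: on the authors' scale 1 was higher and 25 lower over eWAT, where 2.16% and 64.9% of all genes were, and 2 higher and 19 lower over iWAT, where 2.13% and 58.9% were. Median ratios of the 37 were -0.08, 0.18 and 0.15, where the median gene is 0.

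Cox15, which finishes heme a for cytochrome c oxidase, had 8.30 scaled reads for BAT, 162 for eWAT and 74.1 for iWAT. Cox10, which acts one step before it, had 85.7, 132 and 109 in these depots. Cox15 was called lower in BAT against both white depots, with -2.52 (-5.03 to -1.16) over eWAT, under every scaling. It had 3 BAT reads, and no Cox15 region was listed in BAT. The gene thus entered through the white depots, in which it was high. Cox10 was called higher in BAT over iWAT at 1.14 (0.52 to 1.67), but its sign turned on the authors' scale, to -0.33, and with regions listed in all 3 depots as the centre it was not called.

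Bach1, the heme-sensing repressor that acts on Hmox1, had 19.4 scaled reads for BAT, 180.2 for eWAT and 137 for iWAT, and was called lower in BAT against both, with -1.56 (-2.99 to -0.59) over eWAT. Blvra, a biliverdin reductase, had 2.77 in BAT, 52.1 in eWAT and 34.2 in iWAT and was called lower in BAT over eWAT on 1 BAT read. No region of Bach1 or Blvra was listed in BAT, so both genes entered through the white depots, in which they were high. Tmem14c, a porphyrin transporter of mitochondria, had 33.2 in BAT, 7.06 in eWAT and 5.26 in iWAT, and was called higher in BAT over both under every scaling. Its 1 region, with 12 BAT reads, was listed in BAT alone and so entered through the depot in which it was high. Slc48a1, a heme transporter of endosomes, had 63.6, 48.6 and 24.7 in that order of depots and was called higher in BAT, though over eWAT not on the authors' scale. No Slc48a1 region was listed in iWAT, where its sum was lowest. Glrx5, of iron-sulfur cluster assembly, had 22.1, 19.4 and 21.6 and was called higher in BAT, over neither white depot on the authors' scale or with regions listed in all 3 depots as the centre.

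Nfe2l1, a transcription factor of the NRF2 family, was called higher in eWAT over iWAT at 1.53 (0.90 to 2.21) and in BAT over iWAT, the second not on the authors' scale, with 27.7 in BAT, 54.8 in eWAT and 16.3 in iWAT. Its 1 region was listed in BAT and eWAT but not in iWAT, and so entered through the depots in which it was high. Tfrc, the transferrin receptor, had 2.77, 20.3 and 2.10 in BAT, eWAT and iWAT. Slc46a1, a folate and heme carrier, had 0, 15.01 and 1.58, and Hebp2, a heme-binding protein gene, 0, 23.8 and 4.73. Each of these 3 genes had 1 region and was called higher in eWAT over iWAT. All 3 regions were listed in eWAT alone and so entered through the depot in which they were high. Ftl1, the ferritin light chain, ran the other way with 27.7, 37.1 and 136, a ratio of -2.07 (-2.59 to -1.61) for eWAT over iWAT. Ferritin genes have processed copies elsewhere in the genome, and how reads at such copies were placed was not given in the sources used here. Flvcr1, a heme exporter named Mfsd7b in the tables, had 0, 8.83 and 16.8 and was called lower in eWAT over iWAT, though not on the authors' scale. The single regions of Ftl1 and Flvcr1 were listed in iWAT alone and so entered through the depot in which they were high.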

How the data were processed

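The data were 3 deposited peak tables, 1 per depot, with the same 4 value columns. Each deposited value is a signal, the read number of a region after the authors brought all libraries to the same total. STAR, HOMER and mm9 are named in the submitters' processing notes without role or version, and how peaks were called was not given in the sources used here. The deposited peak score was 0 throughout and was not used. The signed distance to the nearest start site came from the tables, per the file headers.

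Within each library 100% of values were whole multiples of 1 read within 0.1 read. If the common total was 10 M reads, an assumption, the libraries held 3.62 M (BAT), 11.3 M (eWAT), 19.0 M (iWAT) and 15.4 M (input). Tables were joined by peak identifier into 69599 regions. Ratios had 0.5 read added to each side and exact Clopper-Pearson intervals. Gene values were sums over regions within 50 kb, matched by gene identifier. Gene sums had exact Poisson intervals, except that a count of 0 was given 3 reads as its upper end. Within-gene ratios of ratios used exact conditional odds ratio intervals. Intervals cover counting error only. No p-value was computed, since each depot had 1 library. The ratio procedure was tested on simulated data. Named genes were all 9 members and, from the list of 41, the 3 largest sums and every called gene. For likeness, 1 was added to each sum before taking log2. The 9 genes, the gene lists and the rules were chosen with earlier results of these data known. Scripts used Python 3.11.15, pandas 2.3.3 and SciPy 1.17.1.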

Additional observations from a re-analysis of the deposited data

How the results depend on the processing

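Scaling mattered for BAT and little for eWAT over iWAT. On the authors' scale, called member regions were 4 lower for BAT over eWAT, and 0 higher and 2 lower for BAT over iWAT, while called genes were 2 and 1 lower in these comparisons. On that scale BAT was called lower than eWAT at 50.1% of all regions and 64.9% of all genes, and lower than iWAT at 52.5% and 58.9%. Of the other heme and iron genes, centring on regions listed in all 3 depots gave 13 lower in BAT than in eWAT, and 10 lower than in iWAT, where 35.6% and 34.7% of all genes were. Centred on regions listed in all 3 depots, BAT over iWAT had 0 member regions higher and 1 lower, where 5.17% and 31.3% of all regions were. BAT over eWAT had 2 member genes lower with that centre. The Hmox1 call for BAT over iWAT was also lost with the strongest 25% of regions as centre (0 higher) or a pseudocount of 1 read (0 higher), and its ratio reversed to -0.50 on the authors' scale. With only regions listed in at least 2 depots, Alad and Fech dropped out, leaving 0 genes lower for BAT over eWAT and 0 higher for eWAT over iWAT. With own values of at least 30 scaled reads, 2 member regions were listed in iWAT. Among regions with a mean of at least 30, called shares were 14.98% lower for BAT over eWAT, 15.2% lower for BAT over iWAT, and 6.54% higher and 14.5% lower for eWAT over iWAT; among such genes, 5.23% were higher for eWAT over iWAT. Of 159 single values under the alternatives, 142 stayed within their counting interval, 16 moved outside it and 1, a called value, reversed. The sign turned in 26 of the 159, 23 of them in comparisons with BAT, and 13 calls changed. The Fech sum turned for eWAT over iWAT, to -0.25, when regions at any distance counted. The Alad ratio for eWAT over iWAT ran from 4.92 to 5.10. No paired analysis was possible because each depot had 1 library. Depth limits BAT most: 1 read is 2.77 scaled reads there.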

Other observations

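The 5 heme genes with 0 regions sat in different surroundings. Their 2 nearest protein-coding neighbours on each side were taken from RefSeq gene order (GRCm38.p6), and only regions that the tables assign to those neighbours within 50 kb were counted, a rule chosen after the values were seen. The neighbours of Uros, all 4 of them, held 10 regions, of which 3 were listed in BAT, 10 in eWAT and 6 in iWAT. Those of Urod held 6 regions, 5 of them at Eif2b3, a translation factor subunit gene. The strongest of these reached 108 scaled reads for BAT, 202 for eWAT, 210.2 for iWAT and 7.81 in the input. The neighbours of Alas2 held 3 regions, those of Ppox 1, at Ufc1, and those of Cpox 0. Which gene such a region acts on was not tested.

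Marker genes were looked up once as a check on the cultures, although a TLE3 region does not measure a gene's RNA. All 5 adipocyte markers and all 3 brown adipocyte markers had a region within 50 kb, as did 3 of 3 preadipocyte and 2 of 3 macrophage markers, while 0 of 3 erythroid markers (Gata1, Klf1 and Hbb-b1) had one. Of all protein-coding genes 51.6% had one, so counts this small do not show which cells were present. Cidea, a brown fat lipid droplet gene, had 99.6 scaled reads for BAT, 72.4 for eWAT and 96.2 for iWAT. Ucp1, the uncoupling protein that defines brown adipocytes, was not highest in BAT on this scale, with 113 for BAT, 212 for eWAT and 178 for iWAT, and Ppara had 80.2 for BAT, 72.4 for eWAT and 49.9 for iWAT. Relative to the median gene, Ucp1 was at 0.67 (0.14 to 1.14) for BAT over eWAT and 0.84 (0.32 to 1.29) for BAT over iWAT, uncalled. With the same centre, Cidea, Ppara, the adipocyte marker Cidec and the preadipocyte marker Pdgfra were called higher in BAT over both white depots. Over all genes 12.0% and 13.1% were. On the authors' scale Cidea and Ppara were less than 2-fold higher in BAT than in either white depot. Cidec had 127 for BAT, 166 for eWAT and 111 for iWAT, so its order turned over eWAT. Cd34 was called lower in BAT over both, and Adgre1 over eWAT, each with 0 BAT reads. The 1 region of Pdgfra, with 7 BAT reads, was listed in BAT alone, and that of Adgre1 in eWAT alone. No Cd34 region was listed in BAT. Pdgfra, Cd34 and Adgre1 thus entered through depots in which they were high. Pparg, the target of rosiglitazone, had 525 for BAT, 1239 for eWAT and 1161 for iWAT.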
